A study of Mus musculus with 16 samples.

Results

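Some cell barcodes in these libraries carried 2 productive T cell receptor (TCR) beta chains in place of 1, and those barcodes are described here. A barcode was a member when it held 2 or more assembled contigs of the beta locus (TRB) in the deposited list of its library. Over the 8 libraries, 4077 of 70515 barcodes with a TRB chain met this rule (5.78%), out of 74368 barcodes in all. The other 66438 had 1 TRB chain and are called one-beta barcodes, and no barcode in the deposited lists had more than 2.

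The libraries were made from spleen CD4+ T cells sorted as CD44high, a mark of T cells that have met antigen, from mice bearing a myeloma. All mice received an antibody that depletes NK1.1+ cells (50 µg on days -2 and 5), Vk12653 myeloma cells on day 0 and, on days 10, 13 and 16, 20 µg of an agonistic antibody against 4-1BB (CD137, a costimulatory receptor) or of control IgG, and were killed on day 18. The 4 groups joined a genotype with a treatment, as WT or KO with IgG or with anti-4-1BB. The labels name 2 experiments and give each its own batch, with 1 library per group in each, so a library is named here by its group and experiment (WT IgG 1 is the one from experiment 1). WT mice carried the reporter allele Eomes-IRES-GFP in both experiments. KO mice were conditional knockouts of the T-box factor Eomes, Eomesfl/fl-CD4Cre in experiment 1 and Eomesfl/fl-ERT2CD4Cre in experiment 2. Tamoxifen was given to WT and KO mice of experiment 2 alone, so the type of knockout, the tamoxifen and the experiment cannot be told apart. CD4Cre is driven by the promoter of CD4, which is active from the thymus onwards. The labels do not say how many animals a library pooled, so p-values below measure the spread between these libraries.

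A T cell assembles its beta chain from V, D and J segments before its alpha chain, and a productive beta chain on one allele normally stops rearrangement of the other, which is called allelic exclusion. The alpha locus (TRA) is not closed in this way, so a single T cell can carry a pair of productive alpha chains, and after the beta chain is fixed its progeny can pair it with different alphas. In droplet libraries a barcode with 2 beta chains can be a T cell with both beta alleles rearranged in frame or a droplet that held a pair of T cells. Both readings are counted together in the numbers below, and no barcode was assigned to either.

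A few pairs of beta chains that recurred are shown as examples, and they hold a small part of the members. Their CDR3 sequences (complementarity-determining region 3, the part made at the V-D-J junction) are printed from the deposited contigs, 5′ to 3′. Capitals mark the bases between the 5′ stretch shared by 25% or more of the distinct chains with the same V label and the 3′ stretch shared by 25% or more of those with the same J label. They approximate the junctional part. No germline reference was used, so they can include bases of a V, D or J segment, and an alpha with no capitals has none by this rule. All printed CDR3 lengths were multiples of 3. Pair A (WT anti-4-1BB 1, 18 barcodes) was the most frequent pair. Pairs B (the same library, 12 barcodes) and C (KO IgG 1, 6 barcodes) joined the same V labels, TRBV1 and TRBV26, with different junctions. Pair D (WT anti-4-1BB 2, 9 barcodes) is the one among the 8 most frequent pairs whose betas were most often also seen alone, and pair E (WT IgG 1, 2 barcodes) recurred with no alpha in common.
Pair A TRBV17-TRBJ1-4: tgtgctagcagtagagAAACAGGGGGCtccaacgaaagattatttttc
Pair A TRBV31-TRBJ1-6: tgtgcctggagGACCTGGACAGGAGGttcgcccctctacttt
Pair A alpha TRAV17-TRAJ37: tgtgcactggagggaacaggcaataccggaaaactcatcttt
Pair B TRBV1-TRBJ2-3: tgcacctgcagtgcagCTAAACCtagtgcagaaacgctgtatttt
Pair B TRBV26-TRBJ1-1: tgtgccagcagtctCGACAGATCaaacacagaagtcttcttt
Pair B alpha TRAV7-4-TRAJ31: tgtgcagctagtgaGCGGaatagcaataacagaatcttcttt
Pair C TRBV1-TRBJ2-3: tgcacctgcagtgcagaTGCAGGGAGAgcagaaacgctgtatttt
Pair C TRBV26-TRBJ1-6: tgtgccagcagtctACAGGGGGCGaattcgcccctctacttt
Pair C alpha TRAV4N-4-TRAJ38: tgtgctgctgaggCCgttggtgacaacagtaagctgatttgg
Pair D TRBV3-TRBJ1-1: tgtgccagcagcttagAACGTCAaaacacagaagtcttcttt
Pair D TRBV19-TRBJ1-2: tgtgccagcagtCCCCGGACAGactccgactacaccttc
Pair D alpha TRAV6D-6-TRAJ52: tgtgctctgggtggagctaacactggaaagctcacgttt
Pair E TRBV5-TRBJ2-7: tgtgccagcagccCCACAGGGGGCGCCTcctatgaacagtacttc
Pair E TRBV15-TRBJ2-7: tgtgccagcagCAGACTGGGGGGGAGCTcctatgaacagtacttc

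The deposited lists set a limit on every share that follows. All 4077 two-beta barcodes also held an alpha chain, whereas 28330 of the 66438 one-beta barcodes held none. Likewise, 0 of the 3853 barcodes with alpha chains alone held 2 of them. No deposited barcode held more than 2 TRB or more than 2 TRA chains. Droplets with 3 or more chains of a locus, if there were any, are thus not in the numbers below. The lists do not say whether barcodes of these kinds were removed before deposit, and this was not tested. That all two-beta barcodes held an alpha is therefore not given as a trait of these cells. Shares are therefore given among all barcodes with TRB and again among the barcodes with both chains, the second denominator being chosen after the files were seen. Depth ranged from 80551 to 445027 TCR UMIs (unique molecular identifiers, which count captured RNA molecules) per library. Intervals are exact 95% Clopper-Pearson intervals, the limit beside a count of 0 is 3 counts over the total, and both cover counting error alone.

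Two-beta barcodes were more frequent in libraries with more cells. Their share of barcodes with TRB was 4.70% (379 barcodes) in WT IgG 1, 9.74% (1367) in WT anti-4-1BB 1, 4.17% (193) in KO IgG 1 and 3.45% (146) in KO anti-4-1BB 1. It was 4.59% (399) in WT IgG 2, 4.65% (442) in WT anti-4-1BB 2, 5.74% (616) in KO IgG 2 and 5.03% (535) in KO anti-4-1BB 2. WT anti-4-1BB 1, which had the most barcodes (14657, against 4637 to 11308 in the other 7), thus stood apart from a range of 3.45% to 5.74%. Among barcodes with both chains the 8 shares ran from 5.21% (interval 4.42% to 6.10%) in KO anti-4-1BB 1, which had the fewest barcodes, to 13.4% (interval 12.7% to 14.03%) in WT anti-4-1BB 1.

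Across the 8 libraries the share of barcodes with TRB correlated with the number of barcodes (Pearson r = 0.847, exact permutation p = 9.92e-05, adjusted 0.000198; Spearman rho = 0.929, exact permutation p = 0.00223, adjusted 0.00446; adjusted over 2 relations). Without the 2 libraries farthest from the median number of barcodes, WT anti-4-1BB 1 and KO anti-4-1BB 1, r was 0.824 (exact permutation p = 0.0625, n = 6), so passing the threshold rested on those libraries. Among barcodes with both chains r was 0.969 (exact permutation p = 9.92e-05) and rho 0.952, and without the same 2 libraries r was 0.970 (exact permutation p = 0.00556, n = 6). The fitted slope was 0.702 percentage points per 1000 barcodes with both chains as the denominator, and 0.587 without the largest library. For all barcodes with TRB it was 0.493 and 0.236. Each experiment held 4 libraries, too few for a correlation of its own. With values centred within each experiment and exchanged inside it (576 arrangements), r was 0.963 (exact permutation p = 0.00174, n = 8), and 0.987 (exact permutation p = 0.00347, n = 8) among barcodes with both chains. The same share against the median TRB UMIs of the library gave r = 0.634 (exact permutation p = 0.0826; rho = 0.530, p = 0.182), and -0.0378 without WT anti-4-1BB 1 and KO IgG 1, the farthest from the median on that axis. Within experiments it was 0.670 (exact permutation p = 0.236, n = 8).

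**Figure D1:**
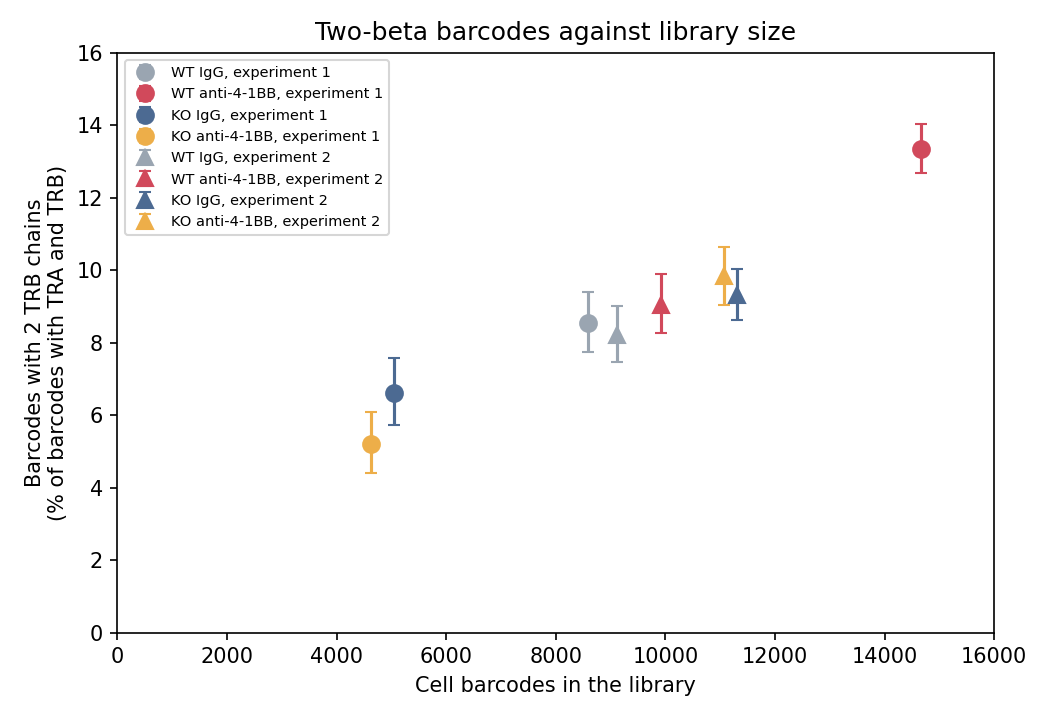
Percent of barcodes with both TRA and TRB that held 2 TRB chains (y axis) against the number of cell barcodes in the library (x axis), 1 point per library, with exact 95% binomial intervals as bars; circles are experiment 1, triangles experiment 2. The points climb from 5.21% in the library with 4637 barcodes to 13.4% in the library with 14657.

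Neither treatment nor genotype moved the share by more than the spread between strata. The treatment difference, anti-4-1BB less IgG, averaged 0.916 ± 2.77 points (SD over the 4 combinations of experiment and genotype, positive in 2; two-sided exact permutation test, p = 0.875). The genotype difference, KO less WT, averaged -1.32 ± 3.39 points (SD over the 4 combinations of experiment and treatment, positive in 2; exact permutation test, p = 0.75). The 16 arrangements of this design cannot give a p below 0.125, and adjusted over 6 such tests each p was 1. Among barcodes with both chains the differences were 1.19 ± 2.61 and -2.05 ± 4.29 points (SD, n = 4; exact permutation p = 0.625 and 0.5). Much of the spread lay in 1 library. WT anti-4-1BB 1 was 5.04 points above WT IgG 1, whereas WT anti-4-1BB 2 was 0.0582 points above WT IgG 2. Leaving out WT anti-4-1BB 1 turned the treatment difference to -0.459 points and the genotype difference to 0.337. WT anti-4-1BB 1 also had more barcodes than WT IgG 1 (14657 against 8597), and the parts of treatment and barcode number in that share cannot be told apart.

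A second alpha chain was more frequent beside 2 beta chains than beside 1. Of the two-beta barcodes, 661 held 2 alphas and 3416 held 1. The percent with 2 alphas was 11.1 in WT IgG 1, 23.7 in WT anti-4-1BB 1, 16.1 in KO IgG 1 and 17.1 in KO anti-4-1BB 1. In experiment 2 it was 14.5, 7.69, 16.7 and 8.22 in the same order of groups. One-beta barcodes with an alpha had 3.83% to 8.98%, and in each of the 8 libraries they were below the two-beta barcodes. The within-library difference was 10.96 ± 3.95 points over all one-beta barcodes (SD, n = 8, higher in 8 of 8; two-sided exact sign-flip permutation test, p = 0.00781, the smallest that 256 sign patterns allow; adjusted over 8 tests 0.00781). Over one-beta barcodes with an alpha it was 8.61 ± 3.79 points (SD, n = 8, 8 of 8 higher; exact permutation p = 0.00781).

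**Figure D2:**
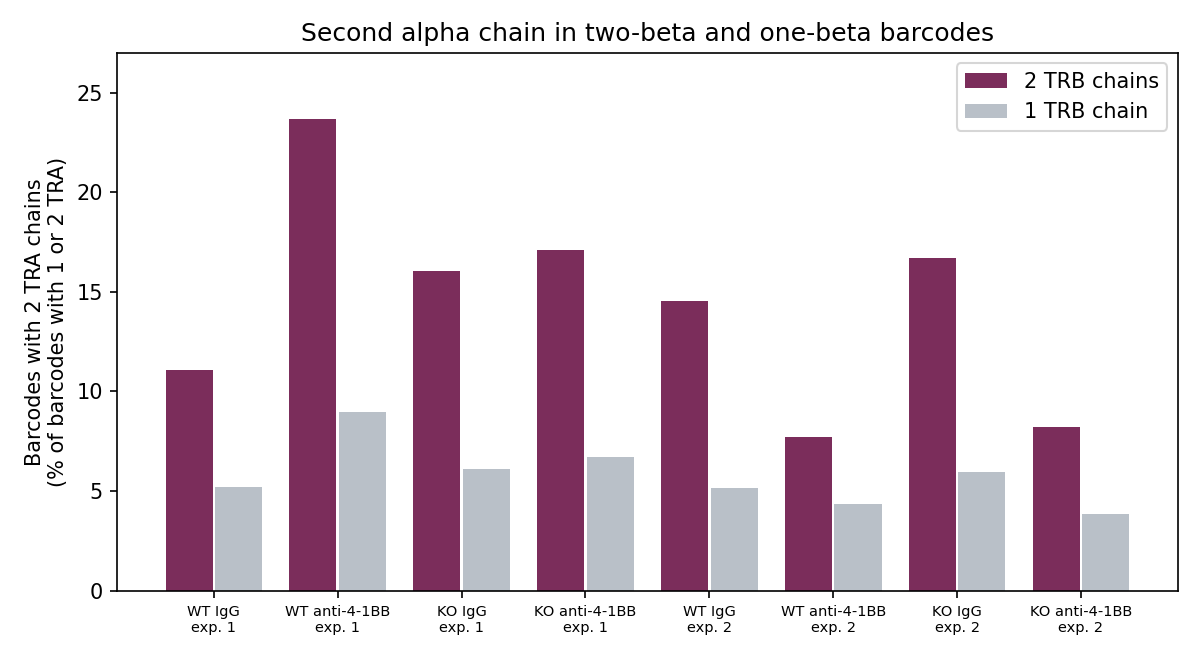
Percent of barcodes that held 2 TRA chains (y axis, bars from 0) in each library (x axis), among two-beta barcodes (purple) and among one-beta barcodes with an alpha (grey). In each library the purple bar is the higher of the pair, from 7.69% against 4.35% to 23.7% against 8.98%.

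The share with 2 alphas went opposite ways with treatment in the 2 experiments. It was higher with anti-4-1BB in both genotypes of experiment 1 (by 12.6 points in WT and 1.06 in KO) and lower in both genotypes of experiment 2 (-6.84 points in WT and -8.50 in KO), which averaged -0.415 ± 9.64 points (SD of 4 strata; exact permutation test, p = 1). One-beta barcodes with an alpha differed in the same directions, by 3.81 (WT) and 0.617 (KO) points in experiment 1 and -0.810 and -2.14 points in experiment 2. The genotype difference among two-beta barcodes averaged 0.280 ± 4.93 points (SD of 4 strata, positive in 3; exact permutation test, p = 0.875). The difference between the experiments was not tested.

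Two-beta barcodes held about 2 times the beta molecules of one-beta barcodes. The first chain, the one with more UMIs, had a median of 15 to 23 UMIs over the libraries and the second 8 to 12, against 10 to 18 for the only beta of one-beta barcodes with an alpha. Both chains together had a median of 23 to 35, which is 1.88 to 2.40 times the one-beta median of the same library. Against all one-beta barcodes, summed beta UMIs differed by 1.11 ± 0.14 on the log2 scale (SD, n = 8), and against those with an alpha by 1.02 ± 0.12. The first chain alone differed from the only chain of one-beta barcodes by 0.45 ± 0.14 (SD, n = 8), or 0.36 ± 0.11 against those with an alpha. Both are descriptions with no test, since members were chosen for holding 2 beta contigs, whose UMIs are summed, and since the first chain is the larger of 2 values. Alpha UMIs, summed over a barcode's alphas, were higher by 0.26 ± 0.11 (SD, n = 8, 8 of 8; exact permutation p = 0.00781), a smaller difference than that in beta UMIs. With 1 alpha chain on both sides, the median alpha UMIs were 7 to 12 in two-beta and 6 to 10 in one-beta barcodes. These medians were equal in WT IgG 1 (7 and 7), WT IgG 2 (7 and 7) and KO IgG 2 (8 and 8). In the other libraries the two-beta median was the higher, and this difference was not tested.

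**Figure D3:**
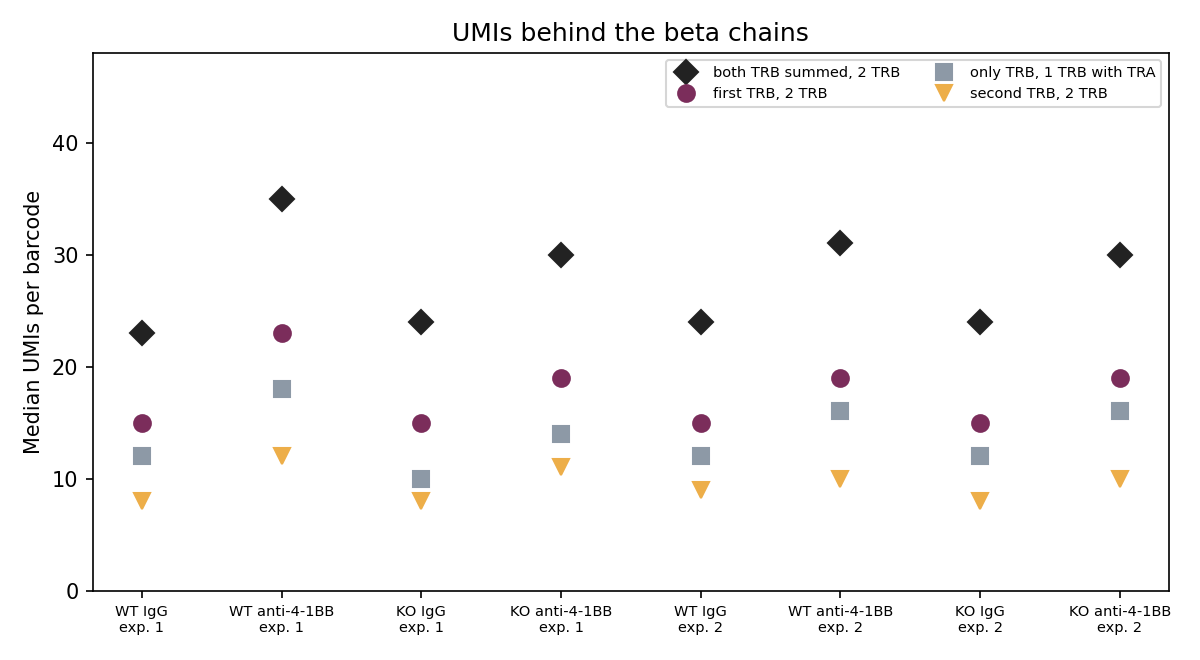
Median UMIs per barcode (y axis) in each library (x axis) for both TRB chains summed, the first and the second TRB of two-beta barcodes, and the only TRB of one-beta barcodes with an alpha. In each library the only chain of one-beta barcodes (10 to 18) lies between the second (8 to 12) and the first chain (15 to 23).

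Among deposited contigs the second beta was rarely a trace. All of these contigs were marked as of high confidence, full length and productive. Weaker second chains that failed these marks were not seen, and their number is not known. It had 10 or more UMIs in 2135 of the 4077 barcodes (52.4%), fewer than 3 in 178 (4.37%) and a single UMI in 82. The balance, the second chain's UMIs over the first's, had a median of 0.556 to 0.636 over the libraries. It was 0.5 or more in 2573 barcodes (63.1%) and under 0.2 in 258 (6.33%). Pairs of alphas in one-beta barcodes were more even, with medians of 0.600 to 0.667, and the two-beta balance less the alpha balance was -0.0550 ± 0.0250 (SD, n = 8, lower in 8 of 8; exact sign-flip permutation p = 0.00781, adjusted 0.00781). Without the two-beta barcodes of balance under 0.2, and with all pairs of alphas kept, it was -0.0294 ± 0.0224 (SD, n = 8; exact permutation p = 0.0156). Alphas had fewer UMIs than betas. In one-beta barcodes with an alpha, library medians were 6 to 10 for alpha and 10 to 18 for beta. The balances were not matched for UMIs, and the part of depth in their difference was not tested. Balance differed by -0.00252 ± 0.0424 with treatment and -0.0142 ± 0.0342 with genotype (SD, n = 4 strata; exact permutation p = 1 and 0.875), within the spread between strata.

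The second beta was a separate sequence in nearly all members. Its CDR3 nucleotides were identical to the first's in 2 barcodes, both in WT anti-4-1BB 1 and both with the same V label on the identical chains (TRBV5, with 15 and 7 UMIs, and TRBV13-3, with 5 and 5), and 0 barcodes had CDR3s 1 or 2 edits apart. The betas of a barcode had the same V label in 411 members (10.1%), the same J label in 436 (10.7%) and the same constant gene label in 2256 (55.3%). TRBV31 (chromosome 6, 41557693 to 41558371, GRCm38) is the V segment downstream of the constant genes, in inverted orientation, and joins by inversion. Over the libraries it made up 5.48% to 9.95% of the beta chains of two-beta barcodes. For one-beta barcodes with an alpha this percent was 6.22% to 9.03%. Within libraries the two-beta percent was higher except in WT anti-4-1BB 1 (8.81% against 9.03%) and KO anti-4-1BB 1 (5.48% against 6.78%). Counted as distinct chains against all one-beta barcodes, it was higher in 1 of 8 libraries.

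The same pair of betas recurred in several barcodes of a library in a small share of members. There were 101 recurring pairs, in 293 barcodes (7.19% of members). The share was 1.58% in WT IgG 1, 6.80% in WT anti-4-1BB 1, 21.2% in KO IgG 1 and 10.3% in KO anti-4-1BB 1, and 8.02%, 10.9%, 4.87% and 5.23% in experiment 2 in the same order. KO IgG 1 was thus the highest (41 of 193 barcodes, interval 15.7% to 27.7%) and WT IgG 1 the lowest (6 of 379, 0.583% to 3.41%). The intervals treat barcodes as independent, though the 41 barcodes belonged to 15 pairs and the 6 to 3 pairs. The chain of a one-beta barcode recurred in another one-beta barcode in 25.6% to 52.9%, by library. The pair's recurrence less the chain's was -28.5 ± 10.5 points (SD, n = 8), and -24.9 ± 12.8 among one-beta barcodes with an alpha. This is a description with no test, since the definitions set its direction. A pair can recur no more often than its rarer chain, and pairs were sought among 146 to 1367 two-beta barcodes of a library, chains among 4090 to 12669 one-beta barcodes.

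Most recurring pairs came with one alpha. In 88 of the 101 pairs 2 or more barcodes shared an alpha chain (nucleotide-identical CDR3), and in 82 all barcodes did; 13 pairs shared none. Of the 32 pairs in 3 or more barcodes, 31 shared an alpha, and the exception, TRBV12-1 with TRBV13-3 in KO IgG 1, had 3 barcodes. All 3 recurring pairs of WT IgG 1, pair E among them, shared none. No pair was found in more than 1 library (0 of 3885 distinct pairs), though 35 to 245 barcode sequences were common to each of the 28 pairs of libraries, and none of those shared barcodes had a CDR3 in common.

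**Figure D4:**
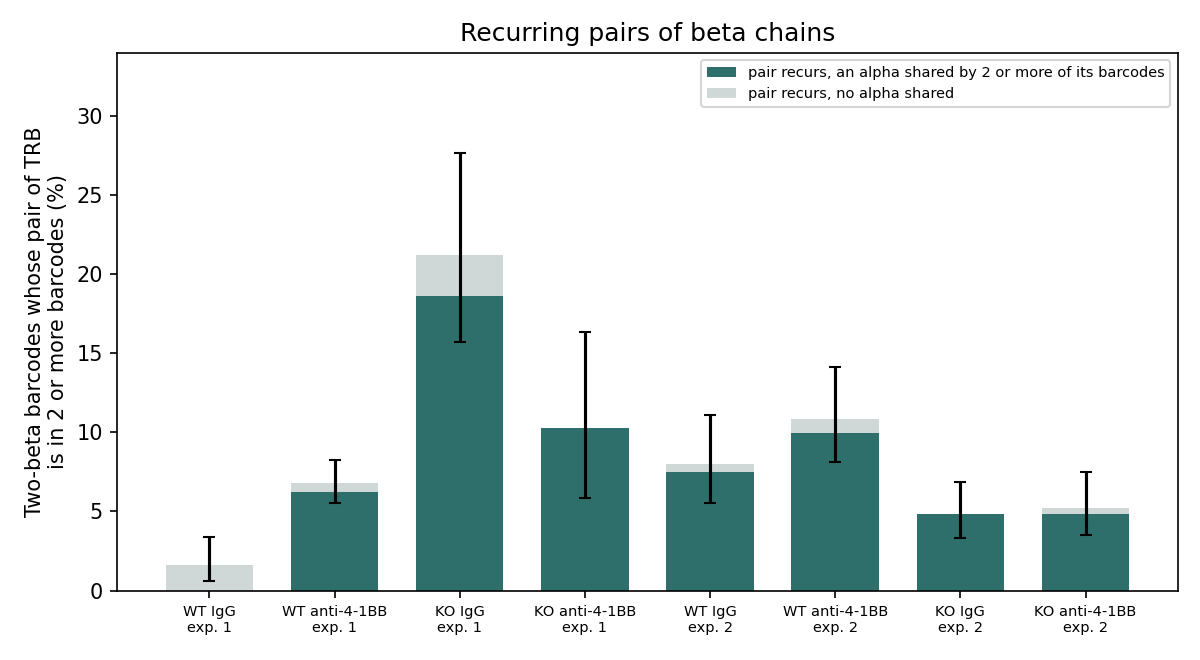
Percent of two-beta barcodes whose pair of TRB chains was seen in 2 or more barcodes of the library (y axis, bars from 0) in each library (x axis), split into pairs with an alpha in 2 or more of their barcodes (dark) and pairs with no alpha in common (light); error bars are exact 95% binomial intervals of the whole share. KO IgG 1 reaches 21.2%, and WT IgG 1, at 1.58%, has the light part alone. The intervals treat barcodes as independent, which barcodes of a pair are not.

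Barcodes of alpha-sharing pairs and barcodes whose pair was seen once differed in their alphas and in their UMIs. Of 266 barcodes in alpha-sharing pairs, 21 held 2 alphas (7.89%), against 638 of 3784 barcodes with a pair of their own (16.9%). Their summed beta UMIs had a median of 2.50 times the one-beta median of their library, against 1.92 times. Counted per pair in place of per barcode, the medians were 2.44 (88 pairs) and 1.92 (3784 pairs). The alpha UMIs were 1.17 times the one-beta median in alpha-sharing pairs and 1.22 times in pairs seen once. By library the share with 2 alphas was lower in alpha-sharing pairs in 5 of the 7 libraries that had such pairs (6.67% against 17.2% in KO IgG 2). It was higher in WT anti-4-1BB 2 (9.09% against 7.36%) and KO IgG 1 (16.7% against 16.4%). Summed beta UMIs were higher in 6 of the 7 and lower in KO anti-4-1BB 1 (1.79 against 2.14 times the one-beta median). Barcodes of a pair are not independent of each other, so these values are given as a description with no test.

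Pair A was found in 18 barcodes, and 16 of them held the alpha TRAV17-TRAJ37. TRBV17 had 8 to 53 UMIs (median 23.5) and TRBV31 5 to 66 (median 27.5). Summed over the 18 barcodes, the UMIs of TRBV31 over those of TRBV17 gave a ratio of 0.996. TRBV17 was the higher in 10 barcodes and TRBV31 in 8, so neither chain was the minor one throughout. Each of the betas was also found alone in 2 one-beta barcodes. The alpha was present in 17 barcodes of the library with any beta.

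Pair B joined TRBV1 and TRBV26 in 12 barcodes, 11 of them with the alpha TRAV7-4-TRAJ31. TRBV1 had 9 to 108 UMIs (median 39) and TRBV26 15 to 67 (median 36.5). TRBV1 was higher in 7 barcodes, lower in 4 and equal in 1. Alone, TRBV1 was in 4 and TRBV26 in 5 one-beta barcodes, none of which had an alpha.

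Pair C joined the same V labels in another library and differed from pair B in balance. In its 6 barcodes TRBV1 had 14, 15, 22, 27, 36 and 39 UMIs and TRBV26 had 4, 4, 7, 4, 10 and 9, in that order. TRBV1 was the higher in 6 of 6, and the summed UMIs of TRBV26 over those of TRBV1 gave a ratio of 0.248. All 6 barcodes held the alpha TRAV4N-4-TRAJ38. With another such pair, seen in 2 barcodes of WT anti-4-1BB 1, TRBV1 with TRBV26 made up 3 of the 101 recurring pairs, and the most frequent combination, TRBV10 with TRBV13-1, made up 4.

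Pair D showed its betas together and apart. TRBV3 had 9 to 30 UMIs (median 14) and TRBV19 3 to 30 (median 10) in its 9 barcodes, 8 of which held the alpha TRAV6D-6-TRAJ52. In the same library TRBV3 was alone in 19 one-beta barcodes, of which 14 had an alpha and 12 this alpha. TRBV19 was alone in 10, of which 5 had an alpha and 4 this alpha. The alpha stood in 28 barcodes of the library in all, so it was seen with both betas, with TRBV3 alone and with TRBV19 alone.

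The other 4 of the 8 most frequent pairs were TRBV17 with TRBV13-1 (KO anti-4-1BB 2, 10 barcodes), TRBV15 with TRBV13-3 (WT IgG 2, 9), and the joined label TRBV12-2+TRBV13-2 with TRBV5 (WT anti-4-1BB 2, 7) and with TRBV14 (KO anti-4-1BB 2, 6). Their leading alpha was in 10 of 10, 8 of 9, 7 of 7 and 6 of 6 barcodes. TRBV15 was above TRBV13-3 in 9 of 9 barcodes and the joined label above TRBV14 in 6 of 6. In the TRBV17 with TRBV13-1 pair TRBV17 was the higher in 8 of 10, and in the remaining pair the joined label was the higher in 4 of 7. Over the 31 alpha-sharing pairs of 3 or more barcodes, the ratio of the lower to the higher chain in summed UMIs ranged from 0.248 (pair C) to 1.00. This ratio had a median of 0.725 and was under 0.5 in 5 pairs. In 13 of the 32 pairs of 3 or more barcodes the same beta was the higher in every barcode.

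**Figure D5:**
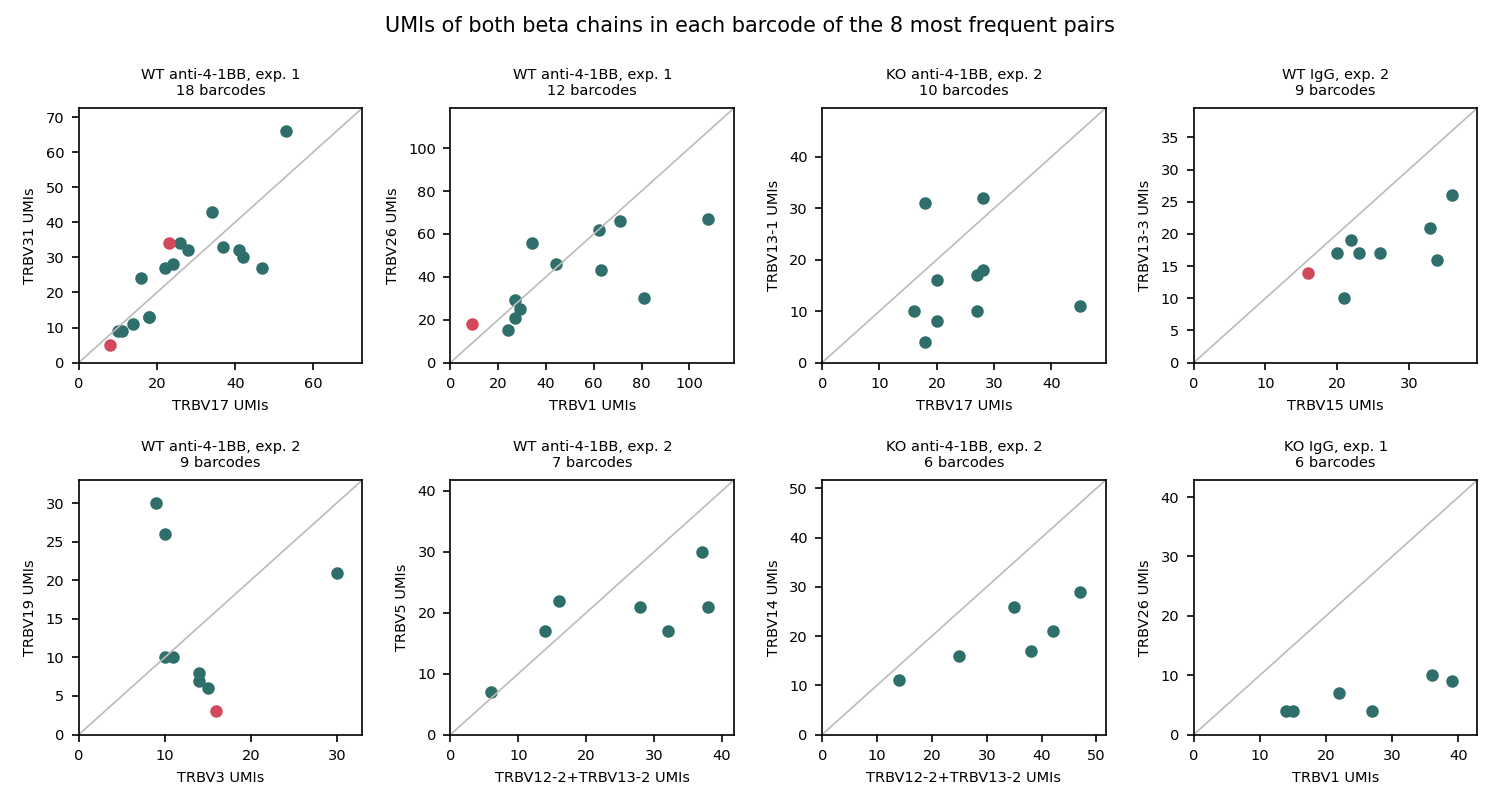
UMIs of one TRB chain (y axis) against the other (x axis) in each barcode of the 8 most frequent pairs, 1 panel per pair and library; green points hold the pair's leading alpha, red points do not, and the grey line marks equal UMIs. Points of the TRBV17 with TRBV31 pair lie on both sides of the line, and the 6 points of the TRBV1 with TRBV26 pair in KO IgG 1 all lie below it.

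Betas of members were also found as the only beta of other barcodes. The first chain was found alone for 31.4% of members in WT IgG 1, 30.3% in WT anti-4-1BB 1, 28.5% in KO IgG 1 and 15.8% in KO anti-4-1BB 1, and in experiment 2 for 35.1%, 51.4%, 38.6% and 46.0% in the same order. The second chain was found alone for 22.7%, 29.1%, 23.8% and 15.1% in experiment 1, and for 30.3%, 44.6%, 36.7% and 39.8% in experiment 2. It was below the first in each library, with a difference of -4.36 ± 2.87 points (SD, n = 8, 8 of 8 lower; exact sign-flip permutation p = 0.00781, adjusted 0.00781). With the one-beta barcodes limited to those with an alpha the difference was -4.35 ± 3.38 points (SD, n = 8, 7 of 8 lower; exact permutation p = 0.0156, adjusted 0.0156). Both betas were found alone for 4.79% to 22.9% of members by library.

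A beta of a member was found in another one-beta barcode somewhat less often than a one-beta barcode's own chain. The difference was -4.70 ± 3.17 points (SD, n = 8, lower in 8 of 8; exact sign-flip permutation p = 0.00781, adjusted 0.00781), and -7.25 ± 2.73 with one-beta barcodes limited to those with an alpha. The libraries whose one-beta chains recurred most, WT anti-4-1BB 2 (52.9%) and KO anti-4-1BB 2 (44.6%), were also those whose members' betas were most often found alone. Among the 88 alpha-sharing recurring pairs, 498 one-beta barcodes carried 1 of the betas, 339 the higher and 159 the lower. Of these 337 had an alpha, and 155 had the alpha of the pair.

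Where a beta was found alone with an alpha, that alpha could be looked for in the two-beta barcode. For 2215 members neither beta had such a known partner. For 392 members (9.61%) both had one, and 301 of these were in pairs seen once. In 25 members each beta had a different one of its known alphas in the barcode, which takes 2 alphas by definition. Of these 25 members 0 were in recurring pairs. They lay in 5 libraries, 11 of them in WT anti-4-1BB 1. In 56 members a single alpha was a known partner of both betas, and 49 of these were in recurring pairs. A partner of the first beta alone was present in 155, of the second alone in 124, and of neither in 32.

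Where only 1 beta of a member had a known partner, its partner was present more often for the first beta than for the second. Over all libraries together it was there in 503 of 809 members when the first beta was the one with a known partner (62.2%). When the second beta was that one, it was there in 306 of 661 (46.3%). The order held in each library but WT IgG 2. There the partner was present in 39 and absent in 34 members for the first beta, against 28 and 23 for the second. The difference was not tested. Nucleotide-identical chains can arise in unrelated cells, and partners were read from the same library, so a match does not show that the barcodes belong to 1 clone.

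Two-beta barcodes used nearly the same V and J segments as one-beta barcodes, with small differences in 6 of 34 segments tested (17.6%; 3 higher and 3 lower, 8.82% each). The test counted distinct beta chains per segment and library (edgeR's quasi-likelihood test with the library as a term and Benjamini-Hochberg adjustment over all 34). TRBV17 (chromosome 6, 41163092 to 41163556, GRCm38) had a log2 difference, two-beta less one-beta, of 0.56 ± 0.17 (SE; edgeR adjusted p = 0.0421), with 0.942% ± 0.250 of one-beta chains and 1.57% ± 0.705 of two-beta chains (SD, n = 8). It was higher in 7 of 8 libraries and lower in KO anti-4-1BB 2. TRBV2 (41047556 to 41047995) was lower in two-beta chains (log2 -0.47 ± 0.14 SE; edgeR adjusted p = 0.0408), at 1.24% ± 0.689 against 1.93% ± 0.552, in all libraries but WT anti-4-1BB 2. TRBV3 (41048394 to 41048824), its neighbour, was also lower (log2 -0.22 ± 0.07 SE; edgeR adjusted p = 0.0408), at 7.50% ± 1.91 against 9.17% ± 1.44, in all libraries but KO IgG 2. The Vβ segments of the TRBV13 family (4 labels, Vβ8) gave 0 calls, with a median of -0.05 against 0.00 over all 34 segments.

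Among the J segments, TRBJ2-2 (41542957 to 41543007) was lower and 2 segments of the upstream TRBJ1 cluster were higher in two-beta barcodes. TRBJ2-2 stood at 6.66% ± 0.292 of one-beta and 5.57% ± 1.02 of two-beta chains (log2 -0.26 ± 0.07 SE, edgeR adjusted p = 0.0225, lower in 8 of 8). TRBJ1-6 (41535554 to 41535606) stood at 2.50% ± 0.268 and 3.20% ± 0.598 (log2 0.35 ± 0.10, edgeR adjusted p = 0.0225, higher in 8 of 8), and TRBJ1-2 (41534001 to 41534048) at 5.13% ± 0.264 and 5.95% ± 1.11 (0.21 ± 0.07, edgeR adjusted p = 0.0421, higher in 7 of 8). Of the 6 TRBJ1 segments tested 2 were called higher and 0 lower (median 0.12), and of the 6 TRBJ2 segments 0 higher and 1 lower (median -0.02). The next by p, which did not pass, were TRBV15 (0.22), TRBV20 (0.18), TRBJ2-1 (-0.10) and TRBV19 (-0.14), with edgeR adjusted p from 0.0747 to 0.324. DESeq2 called 0 of the 34 segments (7 at unadjusted p under 0.05, against 9 with edgeR), and leaving out WT anti-4-1BB 1, which held 1367 of the 4077 members, left 1 call. Against one-beta barcodes with an alpha, edgeR called 9 segments (5 higher, 4 lower), the 6 named above among them. TRBV15 (0.39) and TRBV19 (-0.36) then passed (edgeR adjusted p = 0.00888 each), and the differences of TRBV2 (-0.97, edgeR adjusted p = 0.000149) and TRBV3 (-0.39, edgeR adjusted p = 0.00888) were larger. There were 2 calls without KO anti-4-1BB 2 or WT IgG 2, and 3 without KO IgG 2, WT anti-4-1BB 2 or WT IgG 1.

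Invariant NKT cells, which see lipid antigens presented by CD1d, were looked for by their alpha chain (TRAV11 or TRAV11D joined to TRAJ18). This chain was in 37 of 4077 two-beta barcodes (0.908%, interval 0.640% to 1.25%) and in 231 of 38108 one-beta barcodes with an alpha (0.606%, interval 0.531% to 0.689%). These intervals pool barcodes of unlike libraries as if independent, so they do not serve to compare the classes. Two-beta barcodes also held a second alpha more often. By library the two-beta share was higher in 6 of 8, as in WT IgG 1 (1.32% against 0.271%), and lower in both anti-4-1BB libraries of experiment 1. These were WT anti-4-1BB 1 (0.0732% against 0.101%), which held 1367 of the members, and KO anti-4-1BB 1 (0% against 0.339%). The difference was not tested. The highest share was in KO IgG 2, both for two-beta (2.60%) and for one-beta barcodes (1.75%). In KO anti-4-1BB 1 it was in 0 of 146 two-beta barcodes, which allows a share of up to 2.05%. The alpha of mucosal-associated invariant T cells (TRAV1 joined to TRAJ33) was in 0 of 4077 two-beta barcodes, which allows up to 0.0736%, and in 5 of the 38108 one-beta barcodes.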

How the data were processed

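The 8 TCR libraries were analysed, and the 8 gene expression samples of the series were not analysed here. Per the file headers, each deposited file lists the assembled contigs of 1 library with V, J and constant gene labels, CDR3 nucleotides and the counts of reads and UMIs. The genome build GRCm38 and the tools bcl2fastq 2.20.0, Seurat and Cell Ranger 7.1.0 are named in the submitters' processing notes, and the V(D)J reference is not given in the sources used here. All 123611 contigs were marked as in cells, of high confidence, full length and productive, so chains that failed these marks were not seen. Of 34 TRBV and TRBJ labels, 33 matched the GRCm38.p6 RefSeq annotation, from which coordinates were taken, and the remaining label joins TRBV12-2 and TRBV13-2.

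The first beta of a barcode was the one with more UMIs. A chain was identified by its CDR3 nucleotides, a recurring pair by both betas in 2 or more barcodes of a library, and a beta found alone by the same CDR3 in a one-beta barcode of the library (another one, for one-beta barcodes). The leading alpha of a pair was the alpha in most of its barcodes. Two-beta barcodes were kept as defined, with no doublet caller, and 346 of them (8.49%) and 5799 one-beta barcodes (8.73%) had a barcode sequence also found in another library.

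Within-library differences were tested over the sign patterns of 8 libraries. Treatment labels were exchanged inside the combinations of experiment and genotype, and genotype labels inside those of experiment and treatment, in two-sided exact permutation tests with Benjamini-Hochberg adjustment within each family. Segments were tested with edgeR 4.0.16 in R 4.3.3 on counts of distinct chains per class and library, with the library as a term, totals as library sizes and no abundance trend, for segments of 10 or more chains in at least 2 columns, and called at an adjusted p under 0.05. DESeq2 1.42.0 was an alternative. The segment fit was tested on simulated data. Other values came from scipy 1.17.1, pandas 2.3.3 and numpy 2.4.6 in Python 3.11.15, and figures from matplotlib 3.10.9. Named segments are every call and, under 5 calls in a direction, those of next smallest p. Named pairs are the 8 in the most barcodes, ties by summed UMIs. Members, lists and tests were chosen with earlier results of these data known, and the denominator of barcodes with an alpha, as well as leaving out recurring pairs and the relations within experiments, was added after the files were seen.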

Additional observations from a re-analysis of the deposited data

Results flagged for a closer look

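Among 10 measures of two-beta barcodes, 3 had a library whose gap to the nearest other, over the range of all 8, passed Dixon's 95% value. The 8 libraries are not 1 labelled group, and chance flags about 1 in 20 groups. These were the share of two-beta barcodes in WT anti-4-1BB 1 (9.74%, with the most barcodes of all libraries), the balance in WT IgG 2 (0.636) and the share in recurring pairs in KO IgG 1 (21.2%). With barcodes holding both chains as the denominator, the share in WT anti-4-1BB 1 did not pass.

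In 3 measures both strata of one experiment differed one way and both of the other the opposite way, and the difference between experiments was not tested. The two-beta share, the share with 2 alphas, the balance and the share in recurring pairs were checked, each for treatment and for genotype. Some such flags can arise by chance, and the comparisons not given below did not meet the rule. The two-beta share in KO less WT averaged -3.41 points in experiment 1 and 0.768 in experiment 2. The share of two-beta barcodes with 2 alphas differed by 6.84 points between anti-4-1BB and IgG in experiment 1 and by -7.67 in experiment 2. The share in recurring pairs in KO less WT averaged 11.6 points in experiment 1 and -4.39 in experiment 2. The knockout allele, tamoxifen and experiment changed together between these values and cannot be told apart.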

How the results depend on the processing

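The 8 within-library differences kept their direction and side of the threshold under the alternatives tried for them, though the definitions set the direction of 3 (summed beta UMIs, first-chain UMIs, pair recurrence). Without the 2 libraries farthest from the median the share against barcodes lost the threshold (r 0.824, exact permutation p = 0.0625), and against TRB UMIs r fell from 0.634 to -0.0378 (0.154 without WT anti-4-1BB 1). Over all results and alternatives 227 values were on the same side, 18 had the opposite sign and 8 counts moved by over 1.5 times. No barcode had more than 2 TRB chains, so restricting members to exactly 2 changed nothing. With contigs under 3 UMIs dropped, the difference in barcodes with 2 alphas was 0.666 points for treatment and -0.187 for genotype; neither passed with or without them, and the cause was not tested.

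Leaving out each library in turn, the two-beta share difference ran from -0.459 to 1.46 points for treatment and from -2.14 to 0.337 for genotype. The difference in 2 alphas ran from -4.76 to 2.28 (treatment) and -1.29 to 2.57 points (genotype), and that in balance from -0.0126 to 0.0183 and from -0.0214 to 0.00273. The signs of these 6 differences are thus not settled, and 3 strata cannot give a p below 0.25.

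Segment calls ranged from 1 to 7 over the left-out libraries, 6 with all 8. DESeq2 called 0 (7 at unadjusted p under 0.05), and edgeR with no replicate block, without the library term, called 0 (4 at unadjusted p under 0.05). Against barcodes with an alpha edgeR called 9. The labels mark the experiments as batches, so the experiment was a block in the tests of treatment and genotype. With no block the p of those 6 tests ran from 0.429 to 1, and no call changed. With the experiment as a replicate block, added after seeing the data, the share against barcodes had r 0.963.

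Depth limits the second chain: 178 second betas rested on fewer than 3 UMIs, and a beta lost at low depth makes a two-beta cell look like a one-beta one.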

Other observations

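Pairs of alphas recurred more often than pairs of betas in 7 of 8 libraries. Of the 2320 one-beta barcodes with 2 alphas, 377 (16.3%) held a pair of alphas seen in 2 or more barcodes of the library, from 10.7% in KO anti-4-1BB 1 to 29.5% in WT anti-4-1BB 2, whose largest such pair was in 6 barcodes. The exception was KO IgG 1, with 21.1% for alphas and 21.2% for betas. The difference was not tested.

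Among the 202 chains of the 101 recurring pairs, TRBV31 was the most frequent V label (20 chains), followed by TRBV15 (18) and by TRBV1 and the joined label TRBV12-2+TRBV13-2 (17 each). In 8 of the 101 pairs both betas had the same V label. Of these pairs, 30 had both betas also found alone in one-beta barcodes of the library, 40 had 1 and 31 had neither.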
